A study of Mus musculus with 12 samples.

Results

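Zmiz1 encodes a transcriptional coregulator of the PIAS-like family, and the RNA made across its locus on mouse chromosome 14 was recovered with the chromatin protein HP1γ at many separate places. The locus was taken as chr14:26275000-26490000 in the build mm9, and its members are all regions of the deposited lists that overlap this span: 12 of 2609 regions in the list from PMA-treated cells and 37 of 10013 in the list from untreated cells, 49 of 12622 in all. The span was selected on the number of regions in these same lists, which are dense there. The numbers, widths, folds and member peaks below are therefore descriptions, and none of them was tested.

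Zmiz1 (ENSMUSG00000007817.15, also known as Zimp10) carries a MIZ-type zinc finger like that of the PIAS proteins, which act as SUMO ligases, and is known as a coactivator of the androgen receptor, p53, Smad proteins and Notch1. HP1γ, the product of Cbx3, binds methylated histone H3 through its chromodomain and is found over silent chromatin and over the bodies of transcribed genes. PMA is a phorbol ester that activates protein kinase C.

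The libraries come from lines derived from mouse embryonic fibroblasts that were knock-out for HP1γ and then recomplemented for its expression, so all groups carry both changes. In RNAchIP the RNA that is immunoprecipitated (IP) with HP1γ from solubilised, lightly crosslinked chromatin is sequenced beside the RNA of that chromatin (input). The 4 groups of 3 biological replicates are HP1γ IP and input from cells given 100 nM PMA in DMSO for 30 min, and HP1γ IP and input from untreated cells. Whether untreated cells received DMSO, how many lines or clones were used, and which Cbx3 construct they carry is not given by the sources used. The lists hold no mock IP, no read depth and no value per library, so the depth is unknown, and the level of Zmiz1 RNA itself cannot be read from them. In such bulk samples fewer cells with a transcript and less of it per cell cannot be told apart, and the label of the cells could not be checked against marker genes.

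In RefSeq's annotation of another build, GRCm38.p6, Zmiz1 lies on the plus strand, so lower positions are nearer its 5′ end. There, 5 other genes overlap it: Mir3075, Gm32497, 4931406H21Rik, Gm45915 and Gm52102. The lists hold no strand, so RNA of Zmiz1 and of a gene that overlaps it cannot be told apart, and no annotation of mm9 was at hand to assign a region to an exon, an intron or a UTR. The sequence of the regions cannot be shown for the same reason. The sequence before the gene's start is given because the regions began at that end of the span and were absent from the same length of chromosome before it. It is RefSeq's, from chr14:25458935-25459184 of GRCm38.p6, plus strand, 250 bases up to the base before the start, with each CG in capitals:
Zmiz1 promoter: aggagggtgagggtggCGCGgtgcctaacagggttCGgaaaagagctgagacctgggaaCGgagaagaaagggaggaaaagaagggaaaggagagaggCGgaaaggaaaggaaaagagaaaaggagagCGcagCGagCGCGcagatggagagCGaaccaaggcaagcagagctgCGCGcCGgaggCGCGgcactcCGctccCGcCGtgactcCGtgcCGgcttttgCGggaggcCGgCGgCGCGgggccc
It holds 25 CG dinucleotides, and 10.7% of the 32851 promoters in that table hold as many or more in the same 250 bases, where the median is 6. These coordinates are not on the scale of the mm9 positions below, and no region could be placed on this sequence.

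Regions covered the Zmiz1 span from near its start to near its end in both lists. The PMA regions ran from chr14:26281179-26282052, which began 6.18 kb into the span, to chr14:26478157-26479370. The untreated regions ran from chr14:26280875-26282034, which began 5.88 kb into it, to chr14:26482507-26483191. PMA regions covered 12.9 kb, or 5.997% of the span, and untreated regions 27.9 kb, or 13.0%. The lists shared 8217 bp, which is 63.7% of the length covered after PMA and 29.4% of the length covered in untreated cells. On the 5′ side, neither list had a region in the 215 kb before the span. The nearest earlier region was 3804 kb away in the PMA list and 966.9 kb away in the untreated list. On the 3′ side, the next region followed 58.0 kb after the last one of the span in the PMA list and 32.9 kb after it in the untreated list.

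Regions were spread unevenly along the span. In 5 equal parts of 43.0 kb, from 5′ to 3′, the PMA list had 2, 2, 2, 5 and 1 regions and the untreated list 3, 8, 10, 10 and 6. The fold enrichment of IP over input, which is the authors' value for each region, was highest in the second and the fourth part. The highest PMA folds there were 5.64 and 4.98, and the highest untreated folds 6.91 and 6.19. In the first part the PMA folds were 2.12 and 2.26, and the untreated folds lay between 2.73 and 3.59. The longest stretches inside the span with no PMA region were 49.6 kb (chr14:26428509-26478156) and 35.5 kb (chr14:26287924-26323405). Those with no untreated region were 21.3 kb (chr14:26283551-26304845) and 17.9 kb (chr14:26437426-26455373). Neighbouring regions were separated by a median of 8.99 kb after PMA and 2.92 kb in untreated cells.

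**Figure D1:**
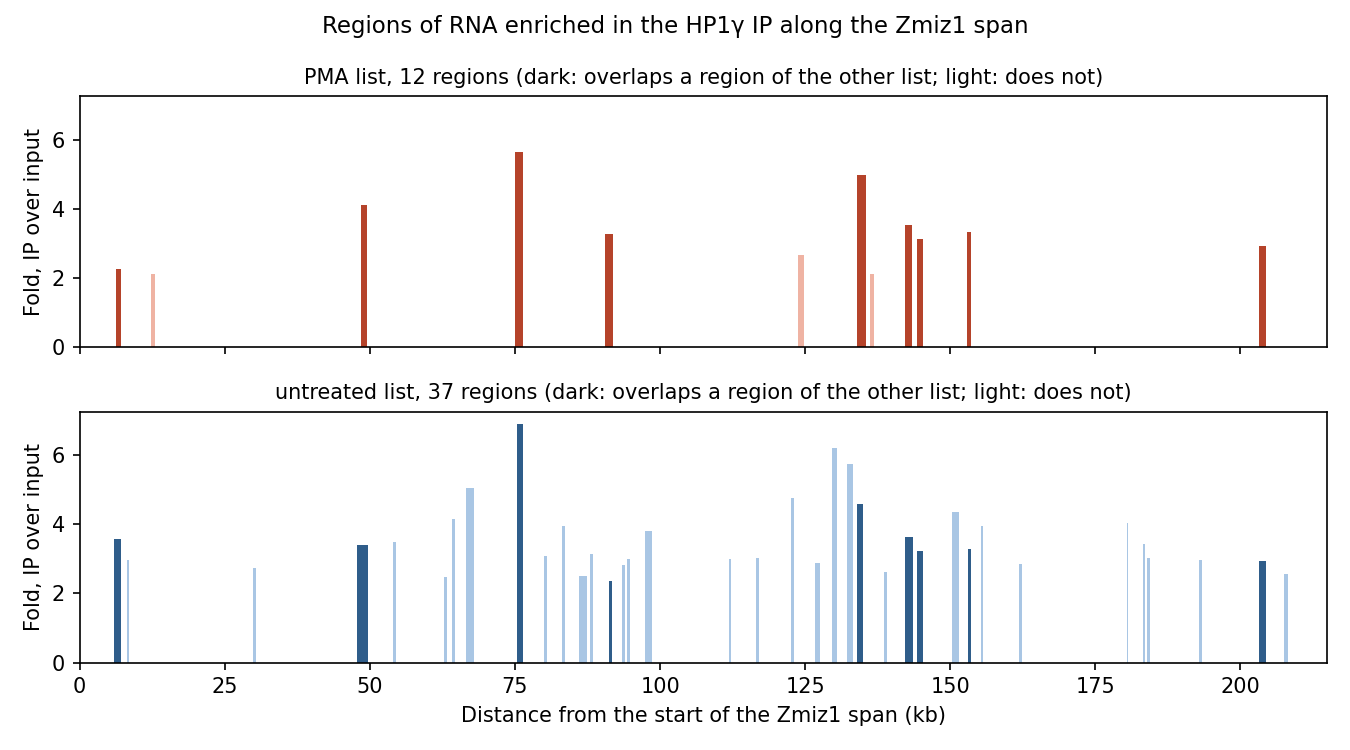
Each bar is a region of the PMA list (top) or the untreated list (bottom), placed by its distance in kb from the start of the Zmiz1 span, with its width to scale and its height the deposited fold enrichment of IP over input. Dark bars overlap a region of the other list: 9 of 12 PMA regions and 9 of 37 untreated regions.

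The strongest PMA regions of the span were among the strongest of their list by q value, and so were the strongest untreated regions. The highest PMA fold was 5.64, at chr14:26349919-26351325, above 96.8% of the PMA list. It was followed by 4.98 at chr14:26408850-26410450 and 4.12 at chr14:26323406-26324470. The second of these was also the widest PMA region of the span, at 1601 bp, and had its highest mean −log10 q, 24.0, above 99.8% of the list. The other −log10 q values over 10 were 18.9 and 11.6, in the first and the third of these regions. The lowest PMA folds were 2.12 and 2.13, at chr14:26287357-26287923, which was also the narrowest at 567 bp, and at chr14:26411202-26411925.

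In untreated cells the highest fold was 6.91, at chr14:26350359-26351339, above 99.2% of the untreated list. A pair of neighbouring regions followed, with 6.19 at chr14:26404677-26405498 and 5.73 at chr14:26407290-26408226. These 3 regions also had the highest −log10 q, with 16.9, 21.0 and 19.3. The widest untreated region was 1845 bp, at chr14:26322754-26324598, and the narrowest 297 bp, at chr14:26455374-26455670. The lowest fold was 2.36, at chr14:26366227-26366699.

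As groups, the regions of the span had a somewhat lower median fold than the rest of each list. The median fold of the 12 PMA regions was 3.20 (order-statistic 95% interval 2.26 to 4.12), against 3.50 (3.46 to 3.53) in the other 2597 regions of that list. The median of the 37 untreated regions was 3.22 (2.98 to 3.62), against 3.65 (3.63 to 3.68) in the other 9976. The median of the rest thus lay inside the span's interval in the PMA list and above it in the untreated list. The median −log10 q was 5.68 (2.42 to 11.6) after PMA and 4.35 (3.10 to 5.34) in untreated cells, against 4.24 and 3.59 in the rest of each list. The median width was 1111.5 bp (724 to 1375) after PMA and 582 bp (517 to 822) in untreated cells, against 779 and 527 bp in the rest. The gap in width did not hold in reduced untreated lists: the untreated median was 1007.5, 1203 and 1092 bp over regions that keep at least 3 peaks when those of replicate 1, 2 or 3 are dropped, and 1036.5 bp in a list as long as the PMA list by −log10 q, all with bounds as deposited. Those reductions also change the kind of region. Dropping a replicate leaves only regions with at least 2 peaks of the same replicate, as every PMA region has. Why their median width was larger was not tested. The 95% intervals cover counting error only, and neighbouring regions of a gene are not independent.

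Most PMA regions of the span overlapped an untreated region, and most untreated regions overlapped no PMA region. Sharing 1 bp or more counted as an overlap. Among the 12 PMA regions, 9 had such an untreated partner, which is 75.0% (exact 95% interval 42.8 to 94.5), where 54.8% of the whole PMA list did. Of the 37 untreated regions, 9 overlapped a PMA region, or 24.3% (11.8 to 41.2), where 15.5% of the whole untreated list did. Both background shares lie inside the intervals. The PMA share was lower against shorter untreated lists: 25.0%, 41.7% and 41.7% against regions with 3 or more peaks left when untreated replicate 1, 2 or 3 was dropped, where the whole PMA list had 19.7%, 22.5% and 25.0%. Against the untreated list shortened by −log10 q to the length of the PMA list it was 41.7%, where the whole PMA list had 19.2%. Each of the 9 PMA regions had exactly 1 untreated partner, and no partner was shared.

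The 9 pairs had similar folds at their 3′ end and differing folds at their 5′ end. From 5′ to 3′, the first pair had a fold of 2.26 after PMA and 3.59 in untreated cells, and the second, which began 48.4 kb into the span, 4.12 and 3.40. The third pair held the highest fold that each list had in the span, 5.64 after PMA and 6.91 in untreated cells. The fourth pair, 90.5 kb into the span, had 3.27 after PMA and 2.36 in untreated cells, and the fifth, 134 kb into it, had 4.98 and 4.59. The last 4 pairs, from 142 to 203 kb, had folds of 3.55, 3.13, 3.34 and 2.92 after PMA and 3.62, 3.22, 3.28 and 2.94 in untreated cells, which differ by less than 0.1 in each pair. Fold was higher after PMA in 4 of the 9 pairs and lower in 5, with differences of PMA minus untreated between -1.32 and 0.91. Over all 1572 overlapping pairs of the lists, it was higher after PMA in 45.9%. There is 1 value per list for each pair, so these differences carry no error. Each fold is also read as a mean over member peaks, whose replicates differed between the lists and between pairs. In the seventh pair, for example, the PMA region joined 1 peak of replicate 2 and 2 of replicate 3. Its untreated partner joined 2 of replicate 1, 2 of replicate 2 and none of replicate 3.

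The PMA region was the wider one in 6 of the 9 pairs, where it was the wider one in 73.0% of all pairs of the lists. The largest difference in width was in the fourth pair, with 1375 bp after PMA and 473 bp in untreated cells. In the second pair the order was the other way, with 1065 bp after PMA and 1845 bp in untreated cells, and the PMA region lay entirely inside the untreated one. The pair nearest the 3′ end (chr14:26478157-26479370 after PMA and chr14:26478168-26479370 in untreated cells) had the same end to the base.

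**Figure D2:**
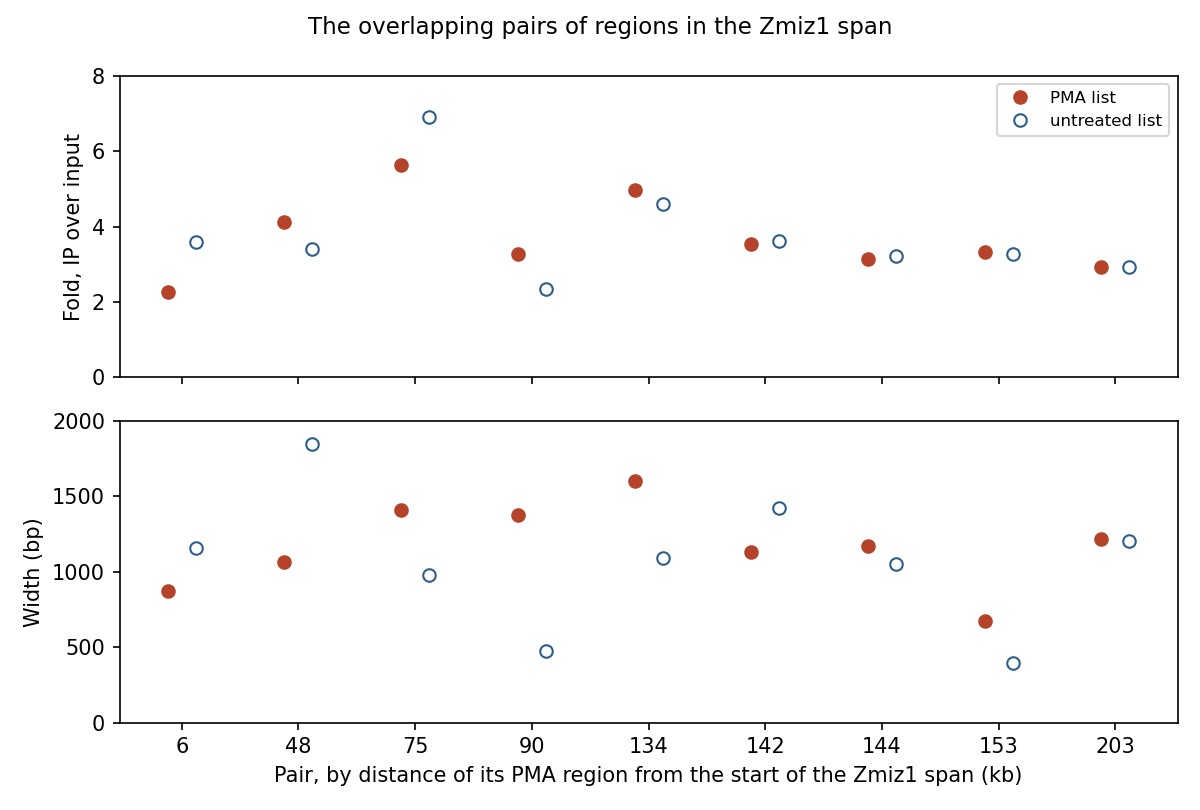
Fold enrichment of IP over input (top) and width in bp (bottom) of the 9 overlapping pairs, ordered by the distance in kb of the PMA region from the start of the Zmiz1 span. Filled points are the PMA list and open points the untreated list, with 1 deposited value each and so no error bars. The 4 pairs from 142 kb on have nearly equal folds, while the pair at 75 kb has 5.64 after PMA and 6.91 in untreated cells. Folds are read as means over member peaks, whose replicates differ between the lists and between pairs.

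The lists were joined from unequal numbers of replicates, which touches every count and fold above. Every region lists by name the replicate peaks it was joined from, never fewer than 3. The PMA list names peaks of replicates 2 and 3 only, so each PMA region had at least 2 peaks of the same replicate. In the span, 8 of the 12 PMA regions had 2 peaks of replicate 2 and 1 of replicate 3, 3 had 1 of replicate 2 and 2 of replicate 3, and chr14:26398772-26399860 had 2 of each. Thus 9 of 12 had at least 2 peaks of replicate 2, against 62.8% of the PMA list, and 4 of 12 had at least 2 of replicate 3, against 50.4%. More than 3 member peaks were found in 1 of the 12, against 16.4% of the list.

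In the untreated list, 35 of the 37 regions had peaks of all 3 replicates, against 91.9% of that list. The exceptions were chr14:26337744-26338325, with no peak of replicate 1, and chr14:26419260-26420312, with none of replicate 3. More than 3 member peaks were joined in 14 of 37, against 22.5% of the list, and the most, 6 with 2 of each replicate, in chr14:26417197-26418619. Regions with exactly 1 peak of each replicate numbered 22, or 59.5%, against 69.9% of the list. Among the 9 untreated regions with a PMA partner, 6 had more than 3 member peaks. Among the 28 with no partner, 8 did, and 19 (67.9%) had 1 peak of each replicate, against 73.7% of regions with no partner in the whole list. In the whole untreated list, 44.3% of regions with a partner and 18.5% of those with none had more than 3.

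The rule by which peaks were joined is not given, but no listed region had fewer than 3. None was thus made of only 1 peak from each of 2 replicates. The untreated list was therefore also reduced to regions with 3 or more peaks from a pair of its replicates. Beside the 12 PMA regions, the span then held 6 untreated regions with replicate 1 dropped, 11 with replicate 2 dropped and 13 with replicate 3 dropped. The ratio of untreated over PMA regions, 3.08 as deposited, was thus 0.50, 0.92 and 1.08, and its direction turned without replicate 1 or 2. Over the whole lists the ratio was 3.84 as deposited and 0.58, 0.76 and 0.91 after the same reductions, to 1505, 1988 and 2367 untreated regions beside 2609 PMA regions, so a turn was seen there as well. By −log10 q, an untreated list of the same length as the PMA list held 14 regions in the span. Dropping either PMA replicate left no PMA region in the span. Whether the way of joining accounts for the lower number of PMA regions was not tested.

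The numbers in the member names also tell how many peaks were called along Zmiz1 in each replicate before joining. Within each of the 5 replicates these numbers rose along every chromosome with no exception, and peaks of 1 replicate in the same region always had consecutive numbers. The first and the last pair of the span therefore bound the same stretch of 198 kb in every replicate. The numbers they carry count the peaks called from one to the other if all called peaks were numbered consecutively along the genome. The order could be checked for listed peaks only, as the peak lists of single replicates were not at hand. In this stretch 116 and 137 peaks were called in PMA replicates 2 and 3, against 147, 101 and 55 in untreated replicates 1, 2 and 3. The PMA counts lay inside the range of the untreated ones. As a share of the highest peak number of the replicate, they were 0.234% and 0.149% after PMA, against 0.168%, 0.248% and 0.164% in untreated cells. These ranges overlapped too.

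The share of the called peaks that ended up in a listed region did differ without overlap. However, the PMA list names peaks of 2 replicates and the untreated list peaks of 3. Every listed region holds at least 3 peaks, and whether this accounts for the lower shares after PMA was not tested. In PMA replicates 2 and 3, 21 and 16 peaks were joined, or 18.1% and 11.7% of those called. In untreated replicates 1, 2 and 3, 46, 42 and 37 were joined, or 31.3%, 41.6% and 67.3%. Over the whole lists the joined shares were 8.85% and 4.34% in PMA replicates 2 and 3. In untreated replicates 1, 2 and 3 they were 13.6%, 27.1% and 31.3%, so they did not overlap there either. Each was lower than the same replicate had on Zmiz1, but the span was chosen for its dense listed regions, which hold the joined peaks. The numbers say that a peak was called and not how strong it was, so the 95 and 121 unlisted PMA peaks may include weak ones. Peaks of PMA replicate 1 are not named in the list and were not analysed here.

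**Figure D3:**
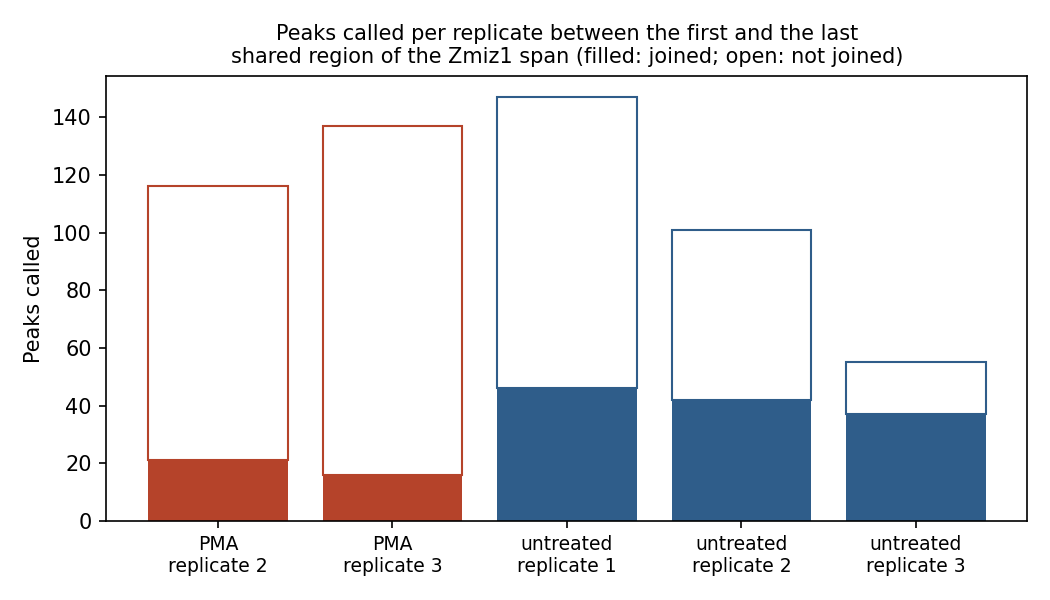
Bars give the number of peaks called between the first and the last shared region of the Zmiz1 span, as read from the peak numbers, by replicate, with the PMA replicates first. The filled part was joined into a listed region and the open part was not. The whole bars of PMA replicates 2 and 3 (116 and 137) lie between those of untreated replicates 3 and 1 (55 and 147), while the filled parts are lower after PMA. Every listed region holds at least 3 peaks, named from 2 replicates in the PMA list and from up to 3 in the untreated list.

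The locus stood out from its chromosome in every replicate. Called peaks had a density of 5.85 and 6.91 per 10 kb in PMA replicates 2 and 3, which is 29.3 and 19.1 times the density over chromosome 14. In untreated replicates 1, 2 and 3 it was 7.41, 5.09 and 2.77 per 10 kb, or 22.0, 30.0 and 20.4 times. By regions, 3 other windows of the same length held more than the 12 of the PMA list and 1 as many, among 1401 windows with a region. In the untreated list 3 of 2988 held more than 37. The locus was chosen for this density.

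Along the gene, called peaks were found in each segment between neighbouring shared pairs and in each replicate. Using the 8 pairs with a member peak of all 5 replicates, the 7 segments between them were 6.75 to 49.6 kb long. PMA replicate 2 had 3.19 to 7.41 peaks per 10 kb in them and PMA replicate 3 had 4.42 to 11.9. Untreated replicates 1, 2 and 3 had 4.91 to 10.9, 2.82 to 7.60 and 0.983 to 3.57. In all 7 segments the range of the PMA replicates met that of the untreated replicates, and untreated replicate 3 was the lowest of the 5. These densities are not scaled to the total of each replicate. Over all chromosomes they were 0.195 and 0.362 per 10 kb in PMA replicates 2 and 3. In untreated replicates 1, 2 and 3 they were 0.341, 0.159 and 0.131. PMA replicate 3 was thus the densest of the 5 over all chromosomes, and untreated replicate 3 the sparsest. Unscaled, PMA replicate 3 was above every untreated replicate in 2 segments. In chr14:26324599-26349918 it had 8.29 peaks per 10 kb and PMA replicate 2 had 6.71, against 5.53, 6.71 and 2.37 in untreated replicates 1, 2 and 3. In chr14:26410451-26417196 the values were 11.9 and 7.41 after PMA and 8.89, 7.41 and 1.48 in untreated cells. The segment nearest the 5′ end, 40.7 kb long, was the sparsest of the 7 in both PMA replicates and in untreated replicates 1 and 3. Beyond the last pair, over the 58.0 kb up to the next shared region, the density was 1.90 per 10 kb in both PMA replicates and 2.59, 1.38 and 0.863 in the untreated ones. Before the first pair, over 3804 kb, it was 0.0841 and 0.208 after PMA and 0.237, 0.0762 and 0.0500 in untreated cells.

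**Figure D4:**
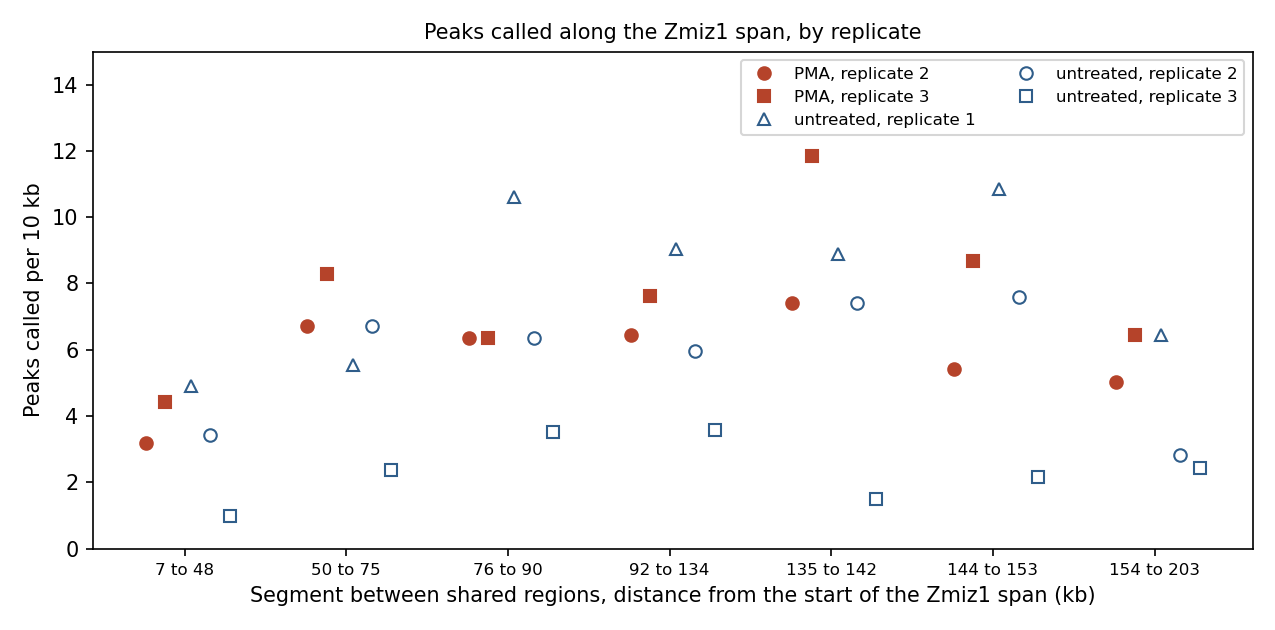
Peaks called per 10 kb in the 7 segments between shared regions, named by their distance in kb from the start of the Zmiz1 span. Filled points are PMA replicates 2 and 3, and open points untreated replicates 1, 2 and 3. In 2 of the segments (50 to 75 kb and 135 to 142 kb) PMA replicate 3 is above every untreated replicate, and untreated replicate 3 is the lowest point in each of the 7. The densities are not scaled to the total number of peaks of each replicate. These totals differ, with PMA replicate 3 the highest and untreated replicate 3 the lowest.

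The stretches that held untreated regions with no PMA partner also held unlisted PMA peaks. The 28 regions fell into 10 stretches between neighbouring PMA regions, 5.30 to 58.0 kb long. Each stretch held at least as many unlisted peaks of PMA replicate 2, and of PMA replicate 3, as it held untreated regions. In PMA replicates 2 and 3, 5.85 and 6.91 peaks were called per 10 kb along the locus. Stretches of these lengths were therefore likely to hold such peaks at any position along it. The 3 strongest of the 28 lay in 2 of these stretches. The regions with folds of 6.19 and 5.73 lay in the 8.99 kb of chr14:26399861-26408849, with another region of fold 2.87 beside them (chr14:26401762-26402573), and 5 and 7 peaks were called there in PMA replicates 2 and 3. The region with a fold of 5.06 (chr14:26341643-26342891) lay with 3 others in 25.4 kb that held 17 and 21 PMA peaks. The next strongest, with a fold of 4.74 (chr14:26397605-26398096), was 1 of 6 in 31.9 kb that held 20 and 23. The untreated region with a fold of 4.36 (chr14:26425235-26426544) was alone in 7.45 kb with 4 and 6. Since positions of single peaks are not given, it is not known whether those peaks lay at the untreated regions.

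In the other direction, the 3 PMA regions with no untreated partner had folds of 2.12, 2.68 and 2.13, the lowest of the list in the span apart from that of its first region, 2.26. The one at chr14:26398772-26399860 lay in a stretch of 3.67 kb between untreated regions, in which 4 peaks of untreated replicate 1, 1 of replicate 2 and none of replicate 3 were called. The one at chr14:26411202-26411925 lay in a stretch of 3.57 kb with 3 peaks of replicate 1, 2 of replicate 2 and none of replicate 3. The one near the 5′ end, chr14:26287357-26287923, lay in 21.3 kb with 12, 3 and 2. Untreated peaks were thus called in each of these stretches too, in at least 2 of the 3 replicates. Along the locus, 7.41, 5.09 and 2.77 peaks were called per 10 kb in untreated replicates 1, 2 and 3. Some such peaks were therefore likely in stretches of these lengths, and whether they lay at the PMA regions is not known.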

How the data were processed

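The deposited lists are in narrowPeak layout, 1 for PMA-treated and 1 for untreated cells. Per the submitters' processing notes, MACS2 2.1.0, STAR 2.5.0a, cutadapt 1.11, featureCounts 1.4.6-p3 and deepTools were used with the build mm9; their roles and settings are not given there. Peaks were called per replicate and joined, as the deposited names show. The deposited fold is a ratio of IP over input; the deposited score and the deposited −log10 q are, like it, read as the authors' means over member peaks. Summit offsets were not used. Starts are printed 1-based. Counts, medians with order-statistic 95% intervals and shares with exact Clopper-Pearson intervals were computed in scipy 1.17.1, numpy 2.4.6 and pandas 2.3.3 under Python 3.11.15, with matplotlib 3.10.9 for figures. Intervals cover counting error only. Partner counts and the counting from peak numbers were tested on simulated lists, in which peaks were numbered consecutively by construction. Regions named are all PMA regions described, those with no partner, and in each list the first and last, the highest 3 by fold and by −log10 q, the widest, the narrowest, those with the most member peaks or fewer replicates, and the longest 2 gaps; other untreated regions and the lowest folds were named after their values were seen. The locus and its comparisons were chosen with earlier results of these data known. Related genes were not counted, as no mm9 annotation was used.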

Additional observations from a re-analysis of the deposited data

How the results depend on the processing

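The 12 PMA and 37 untreated regions, their widths, folds and partner shares were recomputed under other thresholds, span edges, replicates and overlaps: 81 of 104 values stayed within 1.5 times the count or within the 95% interval. With a fold of at least 3, 7 PMA and 24 untreated regions remained, and the untreated median fold was 3.72. With the untreated list at the length of the PMA list by −log10 q, 14 untreated regions remained, with a median width of 1036.5 bp and a median fold of 4.26, and 41.7% of PMA regions had a partner. Leaving out 1 replicate gave 0 to 12 PMA regions and 6 to 37 untreated regions, an untreated median width of 582 to 1203 bp and median fold of 2.91 to 3.62, a partner share of 25.0% to 41.7% for PMA regions and of 0% to 50% for untreated regions. The zeros are those without PMA replicate 2 or 3, where medians and PMA shares cannot be had; untreated widths keep bounds joined over 3 replicates. Stricter q values, other span edges, joining within 1 kb and other overlap minimums left each value within those limits. No paired analysis was possible because the lists hold no values per library and PMA replicate 1 is not named in them.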

Other observations

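Enriched regions resumed beyond the 3′ edge of the span. In the 215 kb after it, the PMA list held 7 regions with folds of 2.58 to 4.98, and the untreated list held 13 with folds of 2.98 to 5.75. Of these, 4 PMA regions (57.1%) and 4 untreated regions (30.8%) overlapped one of the other list, against 54.8% and 15.5% of the whole lists. In RefSeq's GRCm38.p6 the next protein-coding genes on that side of Zmiz1 are Ppif, a mitochondrial peptidyl-prolyl isomerase, and Zcchc24, but no region could be assigned to them in mm9.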
